A study of Homo sapiens with 6 samples.

Results

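The genes described here are 8 factors that mark or maintain definitive blood stem cells, namely MECOM, PRDM16, HLF, MLLT3, SPINK2, HMGA2, MEIS1 and HHEX. They were taken by symbol from the deposited expression table, where each of the 8 stood on 1 row of 58364. RNA was sequenced from H1 human embryonic stem cells collected on day 8 of their differentiation toward blood, with WT cells giving 2 libraries and MSX2-/- cells 4. MSX2 had been disrupted with CRISPR/Cas9 and a guide against the second exon, delivered by lentivirus, and the MSX2-/- libraries came from 2 lines, 1# and 2#, each of which is 1 clone, with 2 libraries per clone. The comparison asks how loss of MSX2, a homeobox repressor, was accompanied by changes in these factors in cells passing from endothelium to blood. The study's text names sorted CD31+ cells for both genotypes, whereas the sample labels name them for MSX2-/- only. The growth protocol given for every sample, WT included, also speaks of H1 cells with or without HAND1 overexpression, which the study's text does not mention. Replicate 1 and replicate 2 of WT, 1# and 2# carry different set letters in the labels. The study's text speaks of independent experiments in general, and neither it nor the labels say whether the replicates sequenced here were separate cultures. P-values therefore measure the spread between these libraries, and how much of it is technical is not known.

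Blood stem cells arise from hemogenic endothelium in the embryo through the endothelial-to-hematopoietic transition (EHT), and only part of the blood progenitors made this way have long-term stem cell activity. MECOM, the gene of EVI1, and its relative PRDM16 encode zinc-finger regulators that sustain stem cells. HLF is a PAR bZIP factor and MLLT3 a reader of acylated histones that acts with the elongation and DOT1L complexes. Both are widely used as marks of stem cell identity. SPINK2 encodes a serine protease inhibitor found in human stem and progenitor cells. HMGA2 is a chromatin protein of fetal cells that is held down by the microRNA let-7, MEIS1 is a TALE homeobox partner of HOX and PBX proteins, and HHEX is a homeobox repressor needed in endothelium and early blood.

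Expression was given as FPKM (reads of a gene scaled to its transcript length and to the sequencing yield of the library), which allows levels of different genes to be set side by side. Library sums ran from 555286 to 617120 FPKM, and 13366 to 14222 genes reached 1 FPKM. The table does not hold read counts, so counting intervals are not given. Relative to WT replicate 1, depth estimated from low values was 1.02 to 1.18 in the other libraries. PECAM1, the gene for CD31, stood at 186 to 258 FPKM in the 6 libraries. The targeted gene, MSX2, was 3.64 and 1.44 FPKM in WT, 18.0 and 5.62 FPKM in 1#, and 31.8 and 6.69 FPKM in 2#. Its mRNA was higher in each MSX2-/- library than in either WT library, so its level does not check the labels.

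Promoters of MECOM, the member called between genotypes, and of MEIS1, a homeobox member lower in each paired library, are shown because MSX2 is itself a DNA-binding homeobox protein. HMGA2, the other member with no overlap between genotypes, follows with its let-7 matches. The sequences are from RefSeq (GRCh38.p14) for promoters and the microRNA and from GENCODE v29 (GRCh38) for the target sites. MECOM lies on the minus strand at chr3:169083499-169663618 and MEIS1 on the plus strand at chr2:66433452-66573869. The MECOM window printed lies within the gene, away from its upstream end. FPKM are given per gene, so transcripts from different starts are not told apart. Each window runs from 250 bases before to 50 bases after an annotated start and is printed 5′ to 3′ on the gene's strand. These are windows in which annotated transcripts begin within 50 bases of the RefSeq start, and capitals mark the letters TAAT or, on the other strand, ATTA, the core that homeobox proteins bind.
MECOM, chr3:169146490-169146789, minus strand: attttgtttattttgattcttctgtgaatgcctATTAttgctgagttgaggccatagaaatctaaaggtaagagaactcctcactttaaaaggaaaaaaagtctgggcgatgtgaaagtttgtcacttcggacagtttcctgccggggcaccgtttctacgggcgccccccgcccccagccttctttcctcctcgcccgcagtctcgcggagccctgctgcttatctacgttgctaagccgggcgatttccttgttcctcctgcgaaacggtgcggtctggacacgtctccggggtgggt
MEIS1, chr2:66434875-66435174, plus strand: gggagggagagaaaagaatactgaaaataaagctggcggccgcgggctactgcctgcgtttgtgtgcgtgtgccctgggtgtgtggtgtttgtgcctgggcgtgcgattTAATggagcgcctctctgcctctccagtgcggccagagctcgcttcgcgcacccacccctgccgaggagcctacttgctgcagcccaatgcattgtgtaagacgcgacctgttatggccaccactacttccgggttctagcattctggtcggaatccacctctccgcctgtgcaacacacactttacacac
Counted from the start, the core began at position -217 in the MECOM window and at -141 in the MEIS1 window. It was found in all 3 MECOM windows and in 4 of the 10 windows that 6 of the members have, against 50.2% of 35116 windows of all genes. The window of HHEX, also a homeobox member lower in each paired library, held no core and is not printed. Neither MEIS1 nor HHEX was called between genotypes. The longer letters TAATTG, or CAATTA on the other strand, were in 0 of the 10 windows and in 7.38% of all windows. Binding was not measured at these places in the data used here, and a match of letters is not a site.

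HMGA2 lies at chr12:65824131-65966295 on the plus strand. The let-7a seed, bases 2 to 8 of the mature microRNA, is in capitals below. The same capitals in the 4 stretches from the 3′ UTR of transcript HMGA2-204, which is 3003 bases long, mark its complement, CTACCTC, shown because let-7 is the best-known regulator of this gene.
hsa-let-7a-5p: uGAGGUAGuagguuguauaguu
HMGA2 site 1, chr12:65963298-65963321: gccaacgttcgatttCTACCTCag
HMGA2 site 2, chr12:65964533-65964556: ccccactactcaataCTACCTCtg
HMGA2 site 3, chr12:65964945-65964968: ttgacttgcaaagacCTACCTCca
HMGA2 site 4, chr12:65965798-65965821: aatcaaaacacactaCTACCTCtt
Counting the transcript with the most matches for each gene, 13 of 19132 genes (0.0679%) held at least 4 of these 7-base matches, and 10.5% held at least 1. LIN28B and IGF2BP1 also held 4, HMGA1 held 1, HLF held 1, and the other 6 members had none. The table lists rows for let-7 hairpins at 0, and mature microRNA was not measured in these libraries.

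In WT cells the members spanned a wide range of levels. HHEX was the most abundant at 107 ± 21.8 FPKM (SD, n = 2), followed by MECOM at 58.3 ± 8.00 and HMGA2 at 52.7 ± 8.32, whose libraries overlapped. MEIS1 came next at 34.5 ± 3.96 FPKM. MLLT3 and PRDM16 were at 7.005 ± 2.59 and 6.60 ± 1.78 FPKM and also overlapped. SPINK2 averaged 0.490 ± 0.190 FPKM and HLF 0.202 FPKM, so both stood at the bottom of the order. In MSX2-/- cells HHEX still led at 92.6 ± 20.5 FPKM (SD, n = 4). HMGA2, MECOM and MEIS1 then stood together at 28.2 ± 11.5, 27.4 ± 2.28 and 27.1 ± 4.30 FPKM with overlapping libraries, so the place that MECOM held above MEIS1 in WT was not seen in MSX2-/-. MLLT3 at 9.19 ± 2.33 and PRDM16 at 4.52 ± 0.816 FPKM were apart from each other, and SPINK2 at 0.898 ± 0.286 and HLF at 0.265 FPKM overlapped.

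**Figure D1:**
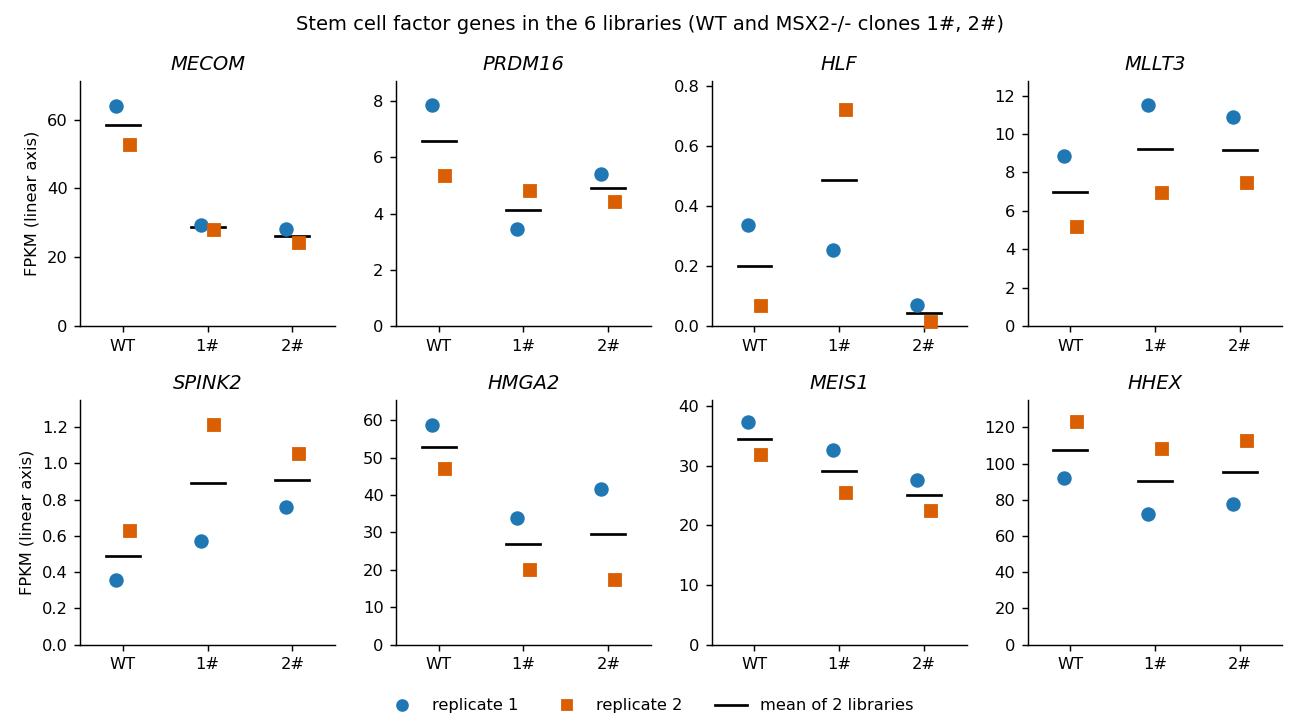
FPKM of each of the 8 genes (linear axes, a scale for each gene) in WT and in the MSX2-/- clones 1# and 2#; circles are replicate 1, squares replicate 2, and bars the mean of 2 libraries. MECOM lies at 52.7 and 64.0 FPKM in WT and between 24.1 and 29.4 FPKM in MSX2-/-, while HHEX and MLLT3 separate by replicate number in every line.

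MECOM was the member with the clearest difference between genotypes. It stood at 64.0 and 52.7 FPKM in replicates 1 and 2 of WT, at 29.4 and 28.1 FPKM in 1#, and at 28.2 and 24.1 FPKM in 2#. All 4 MSX2-/- libraries were below both WT libraries, and the MSX2-/- mean was 47.0% of WT. On the log2(FPKM + 1) scale the difference was -1.06 (SE 0.14, 95% interval -1.39 to -0.72, adjusted p = 0.0292), fitted with limma over 15895 genes, of which 0.963% were called higher and 0.321% lower. Blocking on replicate number brought the SE to 0.089. Leaving out any 1 of the 6 libraries raised the adjusted p to between 0.0717 and 0.182, with differences from -1.20 to -0.92, so each library was needed for the call without the block. With the block, MECOM stayed under the threshold with any 1 library left out (adjusted p = 0.0113 to 0.0357). The call without the block was also lost when low genes were not filtered (adjusted p = 0.0503) and in a fit with 3 groups, one per line (adjusted p = 0.105). The exact permutation test over the 6 libraries gave p = 0.0667, the smallest that 15 splits allow. It treats the libraries as exchangeable, although they share clones and replicate numbers. In bulk RNA, fewer cells that express a gene and less RNA per cell cannot be told apart.

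HMGA2 was the second member with no overlap between genotypes. It was at 58.6 and 46.8 FPKM in WT, at 33.7 and 20.0 FPKM in 1#, and at 41.7 and 17.3 FPKM in 2#, and MSX2-/- averaged 53.5% of WT. Among all genes tested, 9.19% had all 4 MSX2-/- libraries below both WT libraries and 12.1% had them above, while 2 of the 7 tested members were below and 0 above. The log2 difference of -0.96 (SE 0.36, 95% interval -1.82 to -0.10) missed the threshold without the block (adjusted p = 0.357). With the block its SE was 0.17 and it passed (adjusted p = 0.0225), in a fit that called 6.11% of genes higher and 3.74% lower. That call was lost with the block when WT replicate 2, either library of 1# or replicate 2 of 2# was left out, and when low genes were not filtered. The exact permutation p was 0.133.

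The remaining members were not called with or without the block. PRDM16, the closest relative of MECOM, measured 7.85 and 5.34 FPKM in WT, 3.47 and 4.79 FPKM in 1#, and 5.42 and 4.40 FPKM in 2#. Only 2# replicate 1 stood above the lower WT library, and the log2 difference was -0.45 (SE 0.22, adjusted p = 0.517). MEIS1 was 37.3 and 31.7 FPKM in WT, 32.7 and 25.5 FPKM in 1#, and 27.6 and 22.5 FPKM in 2#. Its difference was -0.35 (SE 0.17, adjusted p = 0.526), with 1# replicate 1 just above WT replicate 2. HHEX overlapped more widely, with 91.9 and 122.8 FPKM in WT, 72.3 and 107.9 FPKM in 1#, and 77.8 and 112 FPKM in 2# (log2 difference -0.22, SE 0.23, adjusted p = 0.831).

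MLLT3 and SPINK2 lay on the other side. MLLT3 had 8.84 and 5.17 FPKM in WT, 11.5 and 6.93 FPKM in 1#, and 10.9 and 7.45 FPKM in 2#, a log2 difference of 0.36 (SE 0.28, adjusted p = 0.747). SPINK2 had 0.356 and 0.624 FPKM in WT, 0.574 and 1.21 FPKM in 1#, and 0.759 and 1.05 FPKM in 2#. At such low levels the pseudocount of 1 holds the log2 difference, here 0.34 (SE 0.21, adjusted p = 0.642), below that of the FPKM themselves. HLF, the eighth member, averaged under the minimum of 0.5 FPKM and was not tested with the others. Its values were 0.337 and 0.0664 FPKM in WT, 0.253 and 0.721 FPKM in 1#, and 0.0690 and 0.0150 FPKM in 2#, with the highest and the lowest both in MSX2-/- libraries. Without the filter its log2 difference was 0.05 (SE 0.24, adjusted p = 0.970 over 30029 genes). The median log2 difference of the 7 tested members was -0.35, beside 0.0081 for all genes tested.

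**Figure D2:**
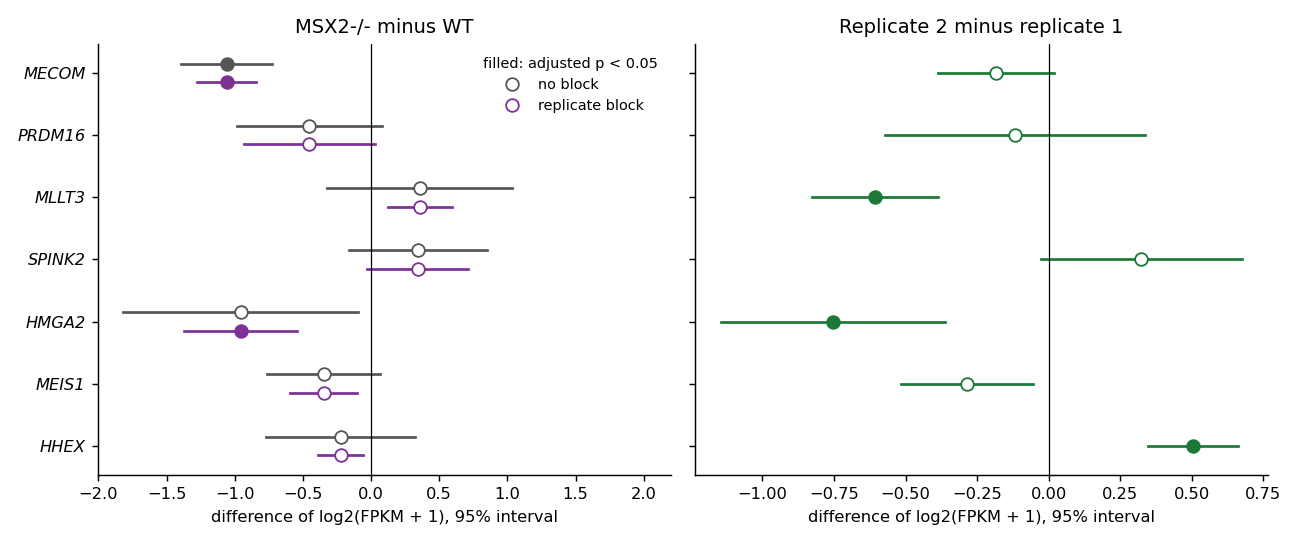
Left, MSX2-/- minus WT on the log2(FPKM + 1) scale with 95% intervals for the 7 tested genes, without (grey) and with (purple) the replicate block; right, replicate 2 minus replicate 1 in a fit with genotype. Filled points passed an adjusted p of 0.05. MECOM passed in both fits of genotype and HMGA2 with the block alone, and MLLT3, HMGA2 and HHEX passed between replicates.

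Set against the WT library that bears the same number, each of the 7 tested members moved one way in all 4 MSX2-/- libraries. The 2 clones share those WT libraries, so the 4 values are not independent. MECOM, PRDM16, HMGA2, MEIS1 and HHEX were lower in 4 of 4, as were 21.3% of all genes, and MLLT3 and SPINK2 were higher in 4 of 4, as were 23.6% of all genes. MECOM was 45.9% and 53.3% of WT in replicates 1 and 2 of 1#, and 44.0% and 45.8% in those of 2#. PRDM16 ranged most widely among the lower genes, from 44.2% in 1# replicate 1 to 89.7% in 1# replicate 2, with 69.0% and 82.5% in 2#. HMGA2 was 57.6% and 71.1% of WT in replicate 1 of 1# and 2#, and 42.7% and 37.0% in replicate 2. It was lower in replicate 2 of both clones, yet the test of this difference between replicate numbers did not pass (log2 -0.65, SE 0.23, unadjusted p = 0.0427, adjusted p = 0.423). MEIS1 was 70.8% to 87.6% of WT and HHEX 78.6% to 91.6%. MLLT3 was 123% to 144% of WT, and SPINK2, from values near 1 FPKM or less, was 161% to 213%. HLF was higher in 1 of 4 and lower in 3 of 4.

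**Figure D3:**
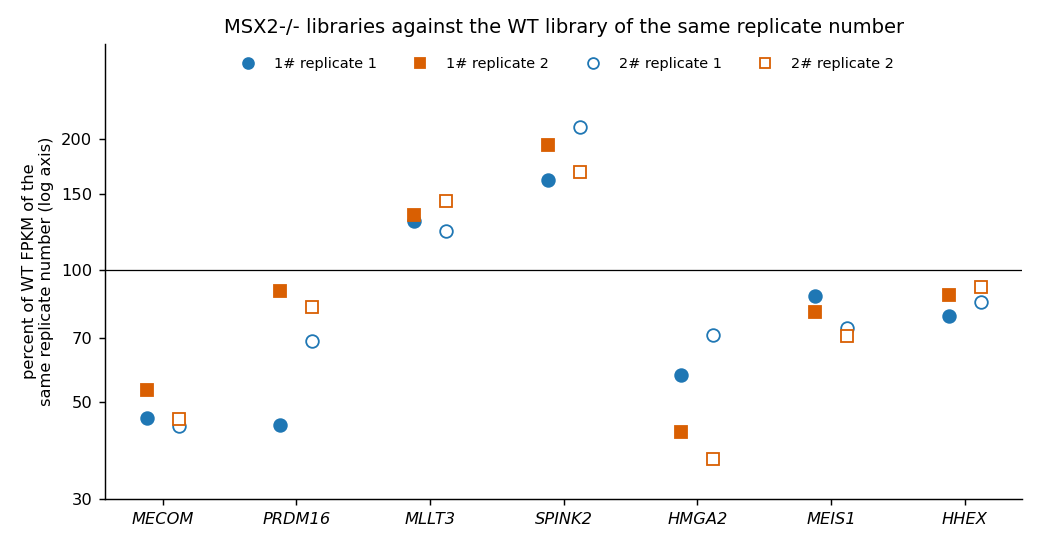
FPKM of each MSX2-/- library as a percentage of the WT library with the same replicate number (log axis), for clones 1# (filled) and 2# (open) and replicates 1 (circles) and 2 (squares). MECOM lies between 44.0% and 53.3% in all 4 libraries, whereas PRDM16 spans 44.2% to 89.7%.

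Each clone was also compared with WT and with the other clone. MECOM differed from WT by -0.99 in 1# and by -1.13 in 2# (log2). In the fit of 3 groups neither passed (adjusted p = 0.214 and 0.177), and 0.00629% of genes were called for each clone, while 1172 and 1181 genes had an unadjusted p under 0.05. With the block both passed (adjusted p = 0.0155 and 0.0116), in fits that called 1.17% of genes lower for 1# and 1.13% for 2#. HMGA2 differed by -0.98 in 1# and -0.93 in 2# and passed in neither, with or without the block. Between the clones, 2# minus 1# was -0.13 for MECOM (95% interval -0.58 to 0.31), 0.05 for HMGA2 (-1.08 to 1.18) and 0.21 for PRDM16 (-0.48 to 0.90). No gene was called between the clones by limma, with 225 genes at an unadjusted p under 0.05 and 530 with the block. With intervals this wide, the comparison of 2 libraries with 2 does not show that the clones were alike. HLF averaged 0.487 FPKM in 1# and 0.0420 FPKM in 2#, a gap that rested mainly on the 0.721 FPKM of 1# replicate 2.

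For HHEX and MLLT3, replicate number went with larger differences than genotype. In a fit with genotype, 15.6% of genes were called higher and 18.9% lower in replicate 2 than in replicate 1, and 1 member was higher and 2 lower. HHEX was higher in replicate 2 by 0.50 on the log2 scale (SE 0.065, adjusted p = 0.00336), with ratios of replicate 2 to replicate 1 of 1.34 in WT, 1.49 in 1# and 1.45 in 2#. MLLT3 fell by 0.61 (SE 0.091, adjusted p = 0.00530), with ratios of 0.585, 0.602 and 0.685. The low and high libraries of these genes thus followed the replicate number in WT and in both clones. HMGA2 fell by 0.75 (SE 0.16, adjusted p = 0.0160), with ratios of 0.799 in WT, 0.593 in 1# and 0.416 in 2#. This call was lost without either library of 1# or without 2# replicate 2 (adjusted p = 0.0553 to 0.0605), and without the filter (adjusted p = 0.0733). MECOM (-0.18, adjusted p = 0.136), PRDM16 (-0.12, adjusted p = 0.653), SPINK2 (0.32, adjusted p = 0.131) and MEIS1 (-0.29, adjusted p = 0.0605) were not called between replicates. What differed between the sets is not stated in the sources used here.

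Markers of cell types moved with genotype as well. Among all genes tested, 0.963% were called higher and 0.321% lower, and with the block 6.11% and 3.74%. Of 10 endothelial markers, 3 were lower in MSX2-/- and 0 higher, and 6 were lower with the block. The 3 called without the block were TIE1, an endothelial receptor (log2 difference -0.58, adjusted p = 0.0382), CDH5, the endothelial cadherin (-0.65, adjusted p = 0.0453), and CLDN5, a tight junction protein of endothelium (-2.28, adjusted p = 0.0121). The summed level of the endothelial list was 3185 and 3781 FPKM in WT and 2036 to 3173 FPKM in MSX2-/-. EGFL7, the largest of the list in every library, differed by -0.27 between genotypes (adjusted p = 0.934). Between replicates it differed by 1.18 (adjusted p = 0.00170), so the sum also followed replicate number. ROBO4, the only marker of this list with a higher mean in MSX2-/-, did not overlap between genotypes and was not called (0.29, adjusted p = 0.484). All 4 MSX2-/- libraries were likewise above both WT libraries in 12.1% of all genes tested. Of 9 blood markers tested out of 10, 3 were higher, among them the red cell membrane gene GYPB and the erythroid factor KLF1, and the list summed to 78.1 and 100.3 FPKM in WT and 168 to 219 FPKM in MSX2-/-. Of 7 mesenchymal markers tested out of 10, 2 were higher, COL1A1 and TAGLN, with list sums of 135 and 190 FPKM against 370 to 419 FPKM. These 2 genes made up most of the sum in MSX2-/-. COL1A1 was at 27.7 and 55.9 FPKM in WT and 193 to 206 FPKM in MSX2-/-. TAGLN was at 15.8 and 33.1 FPKM in WT and 88.3 to 94.2 FPKM in MSX2-/-. COL3A1, the only tested marker of this list that was lower, was not called (log2 difference -0.54, adjusted p = 0.708). With the block the counts were 6 higher for blood and 4 higher for mesenchymal markers. Of the pluripotency markers (6 of 8 tested) and the endoderm and liver markers (9 of 10 tested), 0 were called without the block, among genes of which 1873 had an unadjusted p under 0.05. With the block LIN28A was the 1 pluripotency marker called and SOX17 the 1 endoderm marker called, both higher, and SOX17 is also a factor of arterial and hemogenic endothelium. POU5F1, a core pluripotency factor, was at 0.869 to 5.33 FPKM with a log2 difference of 0.08 (adjusted p = 0.986). The pluripotency list summed to 65.1 and 74.9 FPKM in WT and 85.2 to 102 FPKM in MSX2-/-, most of it LIN28A and DPPA4. Without SOX17, which made up most of its sum in WT, the endoderm and liver list summed to 41.6 and 71.9 FPKM in WT, 229 and 197 FPKM in 1#, and 119 and 13.9 FPKM in 2#. ALB, the liver albumin gene, stood at 122 and 125 FPKM in 1#, at 15.3 FPKM in 2# replicate 1 and at 0 in 2# replicate 2, so these markers did not follow genotype in every library. POU5F1, SOX17 and ALB are named here after their values were seen. In each of the 5 lists, no marker was at 0 in all libraries. The part of these markers in the lower MECOM and HMGA2 was not tested.

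The genes whose pattern over the 6 libraries was most like each member were taken among about 3526 genes averaging 5 FPKM or more with an SD of at least 0.3 on the log2 scale. These correlations describe libraries that share genotype, clone and replicate number. MECOM went most closely with C1orf54 (Pearson r = 0.992), GLUL, the glutamine synthetase (r = 0.992), and TIE1 (r = 0.988). TIE1 was at 505 and 446 FPKM in WT and at 315 to 323 FPKM in MSX2-/-, a narrow MSX2-/- range like that of MECOM. C1orf54 (16.1 to 17.3 FPKM) and GLUL (260 to 277 FPKM) had narrow MSX2-/- ranges too. In all, 60 genes had an r of at least 0.95 with MECOM and 106 with HMGA2. HMGA2 was most like CARD10 (r = 0.997), PCDHGB6 (r = 0.994) and MFSD7 (r = 0.994). HHEX was most like the RNA helicase DDX5 (r = 0.999), the replication protein RPA2 (r = 0.998) and COPRS (r = 0.997), and 178 genes had an r of at least 0.95 with it. MLLT3 was most like GRIK5 (r = 0.995), SNAPC2 (r = 0.994) and FAM210B (r = 0.993), and 117 genes reached 0.95. SPINK2 was most like SOX17 (r = 0.984), CHST11 (r = 0.984) and CBLB (r = 0.983). SOX17 was at 165 and 241 FPKM in WT, 201 and 353 FPKM in 1#, and 237 and 318 FPKM in 2#, so it too was higher in replicate 2 of each line. MEIS1 was most like VIRMA (r = 0.991), SCHIP1 (r = 0.981) and SLC12A5 (r = 0.975). PRDM16 had no gene at 0.95, and its nearest were KLHL3 (r = 0.940), AC011487.1 (r = 0.938) and RPGR (r = 0.923).

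Other regulators of blood stem cells split in direction. Of 21 tested out of 25, GATA2 and GFI1 were higher and ZNF521 lower, and with the block 7 were higher and 3 lower. Among all genes tested, 0.963% were called higher and 0.321% lower, and with the block 6.11% and 3.74%. GFI1, a zinc-finger repressor that silences endothelial genes as blood cells emerge, was at 3.86 and 3.97 FPKM in WT and at 22.8 to 37.6 FPKM in MSX2-/- (log2 difference 2.65, SE 0.23, adjusted p = 0.0100). GATA2, a stem cell factor that is itself linked to MECOM in leukemia, rose by 1.28 on the log2 scale (adjusted p = 0.0152). ZNF521, a zinc-finger cofactor of immature blood cells, fell with MECOM. Its levels were 62.6 and 57.4 FPKM in WT, 31.6 and 32.6 FPKM in 1#, and 38.0 and 33.2 FPKM in 2# (log2 difference -0.81, SE 0.12, adjusted p = 0.0395). The median log2 difference of this list was 0.096.

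In the PRDM and CTBP list of relatives and cofactors of MECOM and PRDM16, 0 of 10 tested genes were called, and 1 was higher with the block. These counts are near the share of all genes called, 0.963% higher and 0.321% lower without the block and 6.11% and 3.74% with it, and say nothing particular about the family. The gene called with the block was PRDM1 (BLIMP1), a repressor in blood lineages, at 6.67 and 11.2 FPKM in WT, 13.1 and 33.9 FPKM in 1#, and 12.7 and 33.8 FPKM in 2#. Its log2 difference was 1.18 (adjusted p = 0.410, and 0.00791 with the block), and it was higher in replicate 2 than in replicate 1 in every line (1.11, adjusted p = 0.00345). PRDM8 followed with 0.49 (adjusted p = 0.389). CTBP1 and CTBP2, the corepressors that bind both MECOM and PRDM16, were not called. CTBP1 was at 177 to 226 FPKM and overlapped between genotypes. CTBP2 was at 83.3 and 68.3 FPKM in WT and 53.3 to 65.1 FPKM in MSX2-/- (log2 difference -0.35, adjusted p = 0.399). It did not overlap, and 9.19% of all genes likewise had all 4 MSX2-/- libraries below both WT libraries. CTBP1 and CTBP2 are named here after their values were seen.

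For the families of HLF and MLLT3 the counts were likewise near the share of all genes called. Among the PAR bZIP genes and clock regulators, 0 of 8 tested were called with or without the block. BHLHE40, a clock repressor, differed by 0.42 between genotypes (adjusted p = 0.867) and by 1.12 between replicates (adjusted p = 0.00432). Among elongation and DOT1L complex genes, 0 of 18 tested were called, and ELL2, an elongation factor, was the 1 gene called with the block. It was at 4.33 and 3.37 FPKM in WT, 8.44 and 6.10 FPKM in 1#, and 8.60 and 7.65 FPKM in 2# (log2 difference 0.84, adjusted p = 0.120, and 0.0108 with the block). Its relative ELL differed by 0.33 (adjusted p = 0.493).

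Of the TALE relatives of MEIS1, 0 of 10 tested were called, and with the block MEIS2 was lower and MEIS3 higher, which is near the share of all genes called (3.74% lower and 6.11% higher). MEIS2, at 58.4 and 32.4 FPKM in WT, was at 18.9 and 15.9 FPKM in 1# and 30.2 and 15.9 FPKM in 2# (log2 difference -1.12, adjusted p = 0.233, and 0.0174 with the block). MEIS3 was at 2.36 and 5.53 FPKM in WT, 12.4 and 9.96 FPKM in 1#, and 11.6 and 10.2 FPKM in 2# (1.35, adjusted p = 0.0867, and 0.0266 with the block). Between replicates, 7 of the 10 were lower and 1 higher in replicate 2, beside 18.9% and 15.6% of all genes. PBX3 stands on several rows, and the one highest on average was taken.

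Beside HMGA2, its relatives in the LIN28 and let-7 axis gave no call without the block in 7 tested genes, and with the block 2 were higher. With the block, 6.11% of all genes were called higher and 3.74% lower. HMGA1, the other member of the HMGA family, was at 289 and 336 FPKM in WT and at 410 to 477 FPKM in MSX2-/-, with no overlap, in the direction opposite to HMGA2 (0.48, adjusted p = 0.115, and 0.00618 with the block). Of all genes tested, 12.1% likewise had all 4 MSX2-/- libraries above both WT libraries. LIN28A, which blocks the making of let-7, differed by 0.45 (adjusted p = 0.502, and 0.0143 with the block). LIN28B and IGF2BP1, which hold as many let-7 seed matches as HMGA2 and are named after their values were seen, had log2 differences of -0.04 (SE 0.16) and -0.05 (SE 0.20). LIN28B averaged 12.4 ± 1.48 FPKM in WT and 12.1 ± 1.41 FPKM in MSX2-/-, and IGF2BP1 47.0 ± 9.34 and 45.6 ± 7.94 FPKM (SD, n = 2 and 4). Whether HMGA2 differed from these genes in its change was not tested. Among the TLE corepressors, which bind HHEX, 0 of 5 were called, and TLE1 was lower with the block (-0.78, adjusted p = 0.478, and 0.0149 with the block), as were 3.74% of all genes. TLE1 was at 21.4 and 12.3 FPKM in WT, 10.9 and 6.13 FPKM in 1#, and 13.7 and 7.14 FPKM in 2#. TLE2 had a difference of 0.47 (adjusted p = 0.735).

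**Figure D4:**
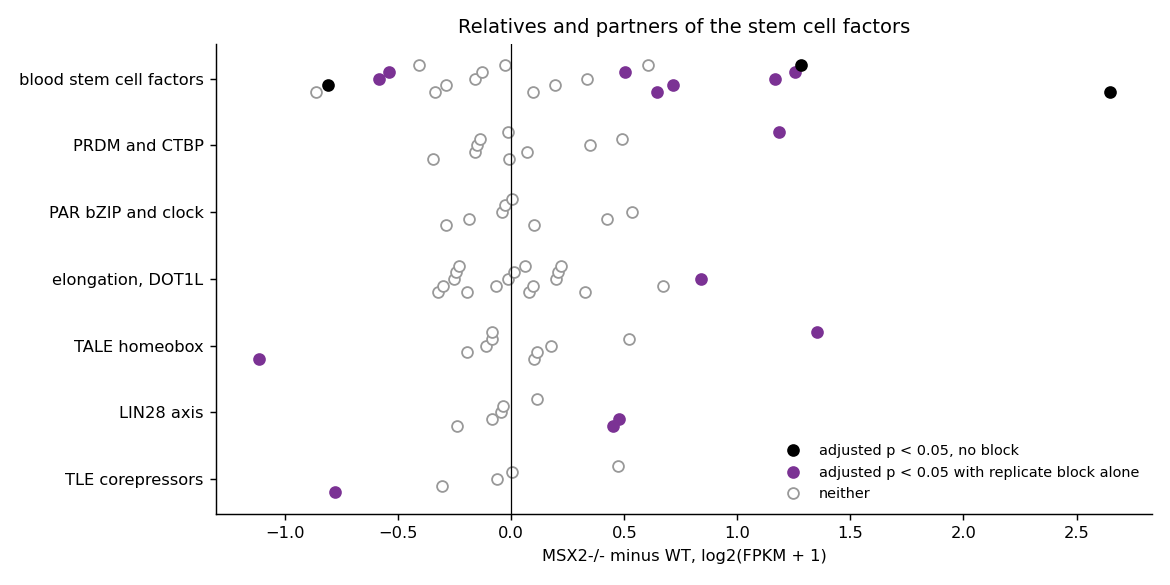
MSX2-/- minus WT on the log2(FPKM + 1) scale for the tested genes of 7 lists of relatives and partners; black points passed an adjusted p of 0.05 without the block, purple points with the block alone, and open points neither. The 3 black points are GFI1 at 2.65, GATA2 at 1.28 and ZNF521 at -0.81, all in the list of blood stem cell factors.

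By the GENCODE annotation, non-coding genes on the other strand overlap MECOM (1), PRDM16 (2), HLF (1), MLLT3 (2), SPINK2 (1), HMGA2 (3) and MEIS1 (2), and no gene overlaps HHEX. Non-coding genes on the same strand also overlap MECOM (2), PRDM16 (2), MLLT3 (2), SPINK2 (1) and HMGA2 (1), and strand would not separate their reads. These overlaps are of whole gene spans, introns included, and shared exons were not checked. Whether counting used strand is not given in the sources used here. Whether any partner added reads to the FPKM of a member is therefore not known.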

How the data were processed

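RNA was sequenced from 2 WT and 4 MSX2-/- libraries of H1 cells at day 8. Per the file as deposited, the values of the 6 libraries are FPKM, normalized by the authors to transcript length and mapped fragments, with no pooling of replicates. The series text names TopHat and Cufflinks, while the processing notes list BWA, Bowtie, RSEM and build hg19, with no versions. Which made the table is not settled here, and 1 row without values was dropped. The positions printed are from GENCODE v29 (GRCh38), which holds 97% of the symbols, and no coordinates were converted. Clone and replicate follow the column names, since the labels number the clones otherwise.

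From the table, log2(FPKM + 1) of the 15895 genes averaging 0.5 FPKM or more was fitted with limma (version 3.58.1, R 4.3.3) with empirical Bayes moderation and a trend, two-sided, with Benjamini-Hochberg adjustment over all genes and a threshold of 0.05. Single members were also given a two-sided exact permutation test, which splits the libraries without regard to clone or replicate number. Comparisons were MSX2-/- with WT, either clone with WT, 2# with 1#, replicate 2 with replicate 1, and the interaction. The replicate number was tried as a block. It pairs the libraries: differences of replicate 2 from replicate 1 correlated across genes between WT and 1# (0.508), WT and 2# (0.540) and the clones (0.636), and the labels give each number a set letter. The fits of MSX2-/- with WT, with and without the block, were tested on simulated data with independent errors per library and no clone effect. That test does not show how they behave for libraries that share a clone. The members, the gene lists and the tests were chosen with earlier results of these data known. Named from each list were genes past the threshold (at most 5) and the 2 with the largest change at a mean of at least 5 FPKM. For each tested member the 3 most correlated genes were named. Single-gene results for some list members are not reported here.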

Additional observations from a re-analysis of the deposited data

How the results depend on the processing

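The count of members called between MSX2-/- and WT was 1 (MECOM). It stayed 1 with a pseudocount of 0.1, with libraries rescaled and with rows of a symbol summed, and was 0 without the filter (MECOM adjusted p = 0.0503), with WT and clones as 3 groups (0.105) and with any 1 library left out (0 to 0). With the replicate block it was 2 (MECOM and HMGA2), also with libraries rescaled (2), with a pseudocount of 0.1 (2), without WT replicate 1 (2) and without 2# replicate 1 (2), and it was 1 in the other blocked fits. For 1# and for 2# against WT the count was 0, and 1 with the replicate block. The block changed no other call of a member. Differences whose sign turned when a library was left out were all uncalled. They were HHEX in 1# against WT (-0.55 to 0.022) and in 2# against WT (-0.45 to 0.082), PRDM16 between replicates (-0.32 to 0.063), MEIS1 in the interaction (-0.21 to 0.031) and, for 2# against 1#, SPINK2 (-0.22 to 0.27), HHEX (-0.20 to 0.37), MLLT3 (-0.32 to 0.34) and HMGA2 (-0.56 to 0.66). The alternatives with the block and another choice, and those leaving out libraries for the clones and the interaction, were chosen after seeing the data. The cause of these shifts was not tested. Only 2 WT libraries limit every comparison with WT, and low genes such as HLF and SPINK2 cannot be resolved at this level.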
